A study of Arabidopsis thaliana with 8 samples.

Results

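The comparison described here is that of the sfr3 mutant with the wild type in plants kept warm, before any cold treatment. It rests on 4 of the 8 arrays of the study, the 2 arrays labelled sfr3 warm and the 2 labelled wild type warm, and the other 4 arrays are of the same genotypes in the cold. All are Affymetrix ATH1 arrays of Arabidopsis thaliana, 1 array per sample. The wild type was the accession Col-0 (stock N1093). The sfr3 mutant, per the labels, comes from ethyl methanesulfonate (EMS) mutagenesis in the Col-0 background, and no backcross is described in the sources used here. Every plant spent 48 h as seed at 4 °C and then 38 days on compost in short days (8 h light, 16 h dark) at 20 °C, with the humidity at 70%, to growth stage 1.14. For sfr3 the aerial parts were harvested and for the wild type the entire rosette, so the genotype and the wording of the harvest cannot be told apart. The labels do not state whether the replicates are separate plants, so the p-values cover the spread between these arrays, which may be technical.

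The sfr (sensitive to freezing) mutants are damaged by freezing after they have been acclimated to low temperature above freezing. The lesion of sfr3-1 is known to be in ACC1, the gene of the cytosolic acetyl-CoA carboxylase. That enzyme makes the malonyl-CoA from which very-long-chain fatty acids are elongated, and these are the precursors of cuticular wax and cutin, flavonoids also being made from malonyl-CoA. Plastids make their own malonyl-CoA for fatty acid synthesis, with a carboxylase of several subunits of which accD is encoded in the plastid genome. The warm comparison asks how far leaf transcripts of the mutant already differ before cold arrives. ACC1 and ACC2 have no value here, since the annotation table used pairs no probe set with either.

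Signals are MAS5 intensities, which put the 2% trimmed mean of every array at 100, and the 4 warm arrays had median signals of 36.8 to 39.0. The background level, the 95th percentile over 27 bacterial controls that should stay dark, was 6.37 to 11.3. Differences are sfr3 minus wild type on the scale of log2(signal + 2.17), which makes the change of a dim gene look smaller than it is. Tests covered 13648 of 22746 probe sets, the brightest 60% by mean over the 4 warm arrays, and at least 99.7% of these were above the background level on each array. Replicate 1 of sfr3 had the highest value of the 4 warm arrays in 4 measures of the RNA. Its actin 3′/5′ signal ratio was 4.69, against 2.41 to 2.84 on the other 3 warm arrays, its GAPDH ratio was 1.03 against 0.836 to 0.901 and its ubiquitin ratio 1.44 against 1.19 to 1.22. Its 25S rRNA signal was 2936, against 1670 on sfr3 replicate 2 and 731 and 1014 on the wild-type arrays. Of the leaf mesophyll markers RCA, which encodes Rubisco activase, was read and was bright on every array, at 6146 and 6987 in sfr3 and 6312 and 8609 in wild type.

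Before cold the genotypes were as alike as replicates of 1 genotype. The median absolute log2 difference over the 13648 probe sets was 0.229 between the sfr3 replicates and 0.213 between the wild-type replicates. The 4 pairs that crossed the genotypes had 0.172 to 0.247, and the closest of all 6 pairs was sfr3 replicate 2 with wild-type replicate 1. Probe sets at least 2-fold apart numbered 342 (2.51%) between the sfr3 replicates and 256 (1.88%) between the wild-type replicates, and 140 to 434 (1.03% to 3.18%) across the genotypes. Across probe sets, log2 signals correlated at 0.965 and 0.970 between replicates and at 0.960 to 0.979 across genotypes. These values are descriptions, because genes are not independent replicates.

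**Figure D1:**
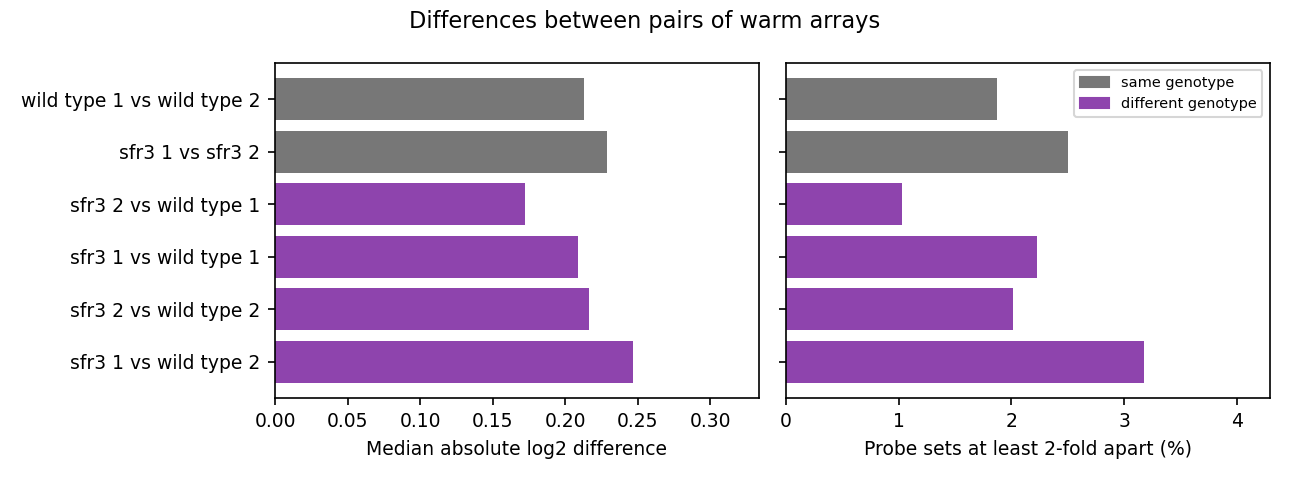
Median absolute log2 difference (left) and percentage of probe sets at least 2-fold apart (right) for each of the 6 pairs of warm arrays over 13648 probe sets. Grey bars are replicates of 1 genotype and purple bars cross the genotypes; the purple bars span 0.172 to 0.247 on the left, a range that holds both grey bars.

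Averaged over replicates, the genotype means correlated at 0.985 across probe sets, and 99.4% of probe sets differed by less than 2-fold. The median difference was -0.01, with quartiles of -0.16 and 0.13. The mean of 82 probe sets differed by 2-fold or more, 19 higher and 63 lower in sfr3. The number of arrays limits what could be seen. The 95% interval of the difference reached a median of 0.47 either side on the log2 scale. For 11818 probe sets (86.6%) that interval lay within 2-fold either way, and for 13576 (99.5%) within 4-fold; these intervals are per probe set and not adjusted for their number.

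limma called 1 of the 13648 probe sets at an adjusted p below 0.05, which is 0.00733%, and it was lower in sfr3. The count was 6 without sfr3 replicate 1, 37 without sfr3 replicate 2, 4 without wild-type replicate 1 and 1 without wild-type replicate 2. In those fits the array left alone in its group is assumed to vary like the other group. With all 4 arrays, 427 probe sets (3.13%) had an unadjusted p below 0.05, 152 higher (1.11%) and 275 lower (2.01%). Both sfr3 arrays stood above both wild-type arrays for 1949 probe sets (14.3%) and below them for 2245 (16.4%). Only 5 (0.0366%) were at least 2-fold apart on both arrays, meaning that the sfr3 array nearest to wild type was still 2-fold from the nearest wild-type array. They were probe sets 261639_at and 253259_at, AT2G27080 and EXPA15, all lower, and UGT76E12, higher.

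**Figure D2:**
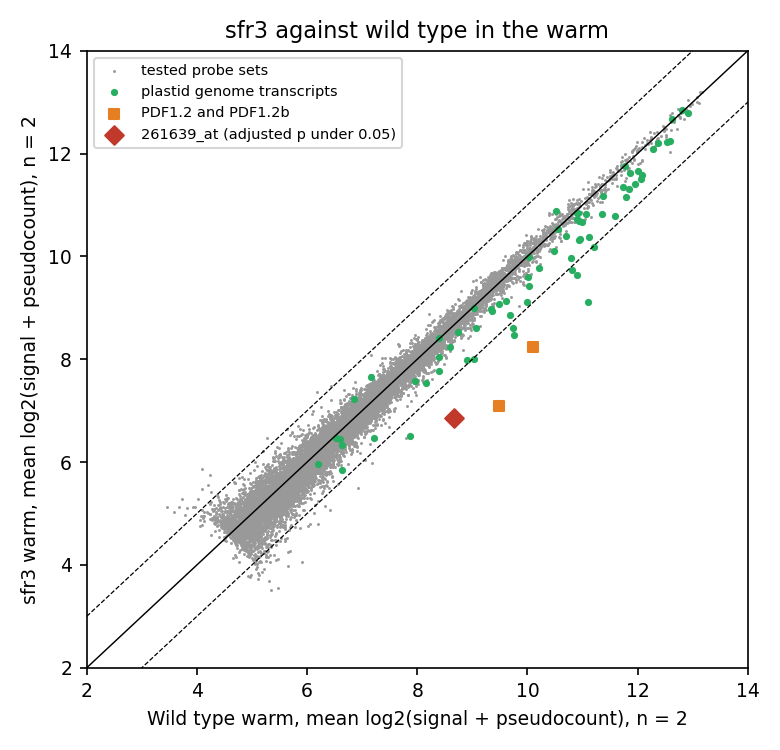
Mean log2(signal + 2.17) of the 2 sfr3 warm arrays against that of the 2 wild-type warm arrays for 13648 probe sets, with the line of equality (solid) and lines 2-fold either side (dashed). Most points lie between the dashed lines (99.4%); the red diamond is 261639_at, the orange squares are PDF1.2 and PDF1.2b, and the green points are the 69 plastid genome transcripts.

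The called probe set, 261639_at, was not paired with a gene in the annotation used here. Its signal was 108 and 121 on the sfr3 arrays and 414 and 395 on the wild-type arrays, with means of 114 ± 9.43 and 405 ± 13.3 (SD, n = 2). The groups did not overlap, and the 2 arrays of each genotype lay close together. The difference was -1.81 (SE 0.17, limma adjusted p = 0.00236). It kept its direction when any 1 array was left out (-1.89 to -1.72). The call was lost when all probe sets were tested (adjusted p = 0.0578), without the intensity trend of the variance (0.346) or when all 8 arrays shared 1 estimate of the spread (0.825).

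The cold arrays were not among the arrays of the fit behind that call. They showed the same probe set low in sfr3 again, at 47.9 and 85.9 against 399 and 408 in wild type. All 4 sfr3 arrays thus lay below all 4 wild-type arrays, and the wild type had nearly the same signal warm and cold. The cold difference was -2.61 (SE 0.32), with an adjusted p of 0.257 in the limma fit of the 4 cold arrays. Of the cold sfr3 arrays, replicate 1 stood apart, with a background level of 35.4 against 8.18 to 9.33 on the other cold arrays. Without it the difference was -2.20, and without replicate 2 it was -3.02. With 1 sfr3 array left, such a fit cannot measure the spread in sfr3, so only the size is given. The difference between the warm and the cold effect did not pass (limma interaction, adjusted p = 0.737).

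No probe set paired with a gene was called. The 30 genes described next, 15 in each direction, are those with the smallest p among genes whose sfr3 arrays both lay on 1 side of both wild-type arrays, and their separation in these 4 arrays is therefore part of how they were chosen. Their adjusted p values in limma were 0.266 for AT2G27080, 0.770 for LSM3B and 0.999 for the other 28, so that none is shown to differ.

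Of the genes with higher values in sfr3, LSM3B encodes a subunit of the LSM complexes that act in messenger RNA decay and in splicing. Its signal was 189 and 165 in sfr3 and 93.9 and 76.6 in wild type, a difference of 1.04 (SE 0.19). UGT76E12, a UDP-glycosyltransferase gene, had the largest value of this group, with 57.7 and 54.3 in sfr3 against 20.3 and 10.7 (1.78, SE 0.36). The sfr3 arrays agreed closely for UGT76E12, while the wild-type arrays were spread more widely. The 10.7 of wild-type replicate 2 was under that array's background level of 11.3. The bHLH-family gene AT1G10585 had 89.9 and 106 against 61.7 and 36.2 (1.01).

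BZIP17 encodes a membrane-anchored transcription factor of the salt and endoplasmic reticulum stress responses. It had 77.2 and 84.0 in sfr3 and 49.9 and 38.3 in wild type, a difference of 0.85. The carboxypeptidase-like gene SCPL45 had 87.0 and 92.0 against 54.6 and 50.1 (0.75). DI21, a gene first described as induced by drought, had 117 and 104 against 70.7 and 75.1 (0.58), and OASA2, of the family that makes cysteine from O-acetylserine, had 86.4 and 90.4 against 52.0 and 56.8 (0.68). In these 4 genes the gap between the genotypes was wider than the gap within either of them. SWEET4, a sugar transporter gene, had 55.6 and 50.1 against 32.9 and 25.5 (0.82). The other 7, AT3G52730, AT3G45050, AT5G57370, AT1G19530, AT4G10910, AT3G50560 and AT1G65270, had differences of 0.66, 0.69, 0.83, 0.58, 0.70, 0.61 and 0.56.

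Of the genes with lower values, AT2G27080 came closest to the threshold after the called probe set. Its signal was 44.0 and 41.6 in sfr3 and 143 and 101 in wild type, a difference of -1.44 (SE 0.23, limma adjusted p = 0.266). EXPA15 encodes an expansin, a protein that loosens the cell wall during growth, and had 30.5 and 29.2 against 65.2 and 70.4 (-1.13, SE 0.25). Both genes had tight sfr3 arrays at well under the wild-type level. The unpaired probe set 253259_at had 32.8 and 19.8 against 68.0 and 74.6 (-1.40).

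A few of the lower genes have known parts in senescence, defence and stress. WRKY53, a transcription factor of leaf senescence and defence, had 111 and 92.2 in sfr3 and 202 and 156 in wild type (-0.80, SE 0.20). SAG29, the senescence-associated sugar transporter also called SWEET15, had 31.3 and 19.7 against 52.3 and 75.005 (-1.26). PUB23, a ubiquitin ligase that dampens immune and drought responses, had 40.4 and 28.3 against 59.9 and 77.7 (-0.97). The senescence list itself had no gene paired with a probe set, so no senescence marker beyond these was read. AT4G29780 had 58.0 and 69.6 against 179.6 and 95.5 (-1.02). For AT4G29780 the wild-type arrays differed more from each other than the lower one differed from sfr3. The others were AT3G47590 (-0.80), AT4G31200 (-0.95), AT3G56290 (-0.72), AT4G16240 (-0.81), AT1G61890 (-0.67) and AT2G30960 (-1.04), and the plastid transcripts psaC and petL described below. The probe set of AT4G16240 is of a type that can also detect similar transcripts.

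**Figure D3:**
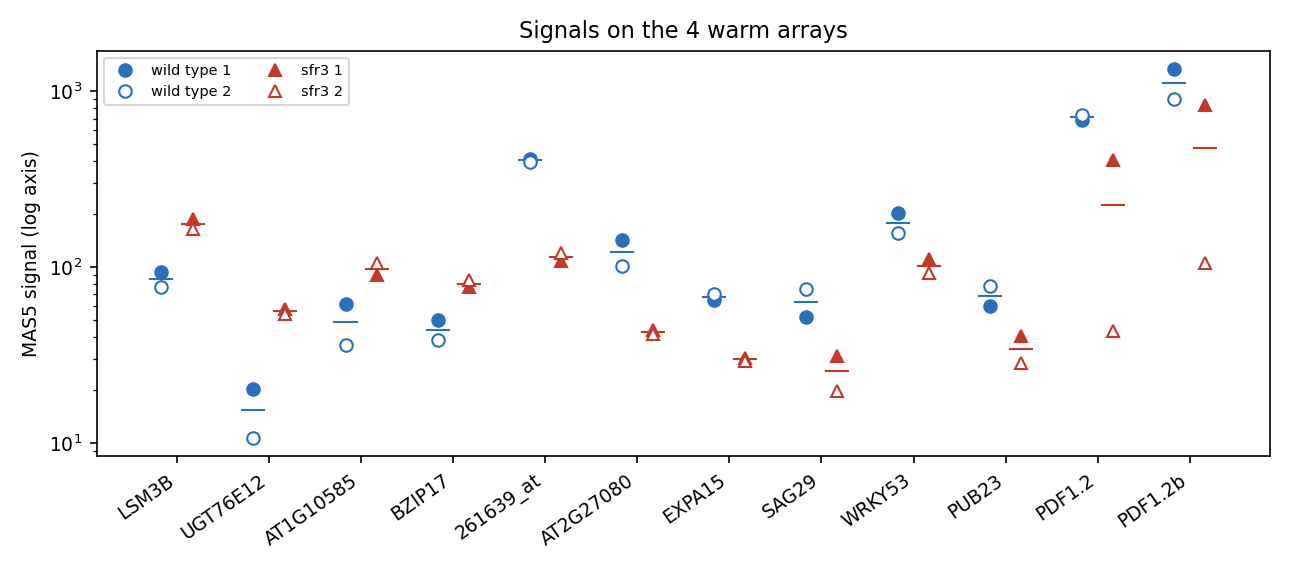
MAS5 signal (log axis) of 12 probe sets on the 4 warm arrays, with filled symbols for replicate 1, open symbols for replicate 2 and a line at each mean of 2 arrays. For 261639_at the sfr3 arrays (108 and 121) and the wild-type arrays (414 and 395) are far apart and tight; for PDF1.2 the sfr3 arrays (408 and 43.4) are far from each other.

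The plant defensin genes PDF1.2 and PDF1.2b, markers of jasmonate and ethylene signalling, had the largest mean differences of the fixed gene lists, and these rested mainly on 1 array. PDF1.2 stood at 408 on sfr3 replicate 1 and 43.4 on replicate 2, against 688 and 734 in wild type, a difference of -2.38 (SE 0.66). PDF1.2b stood at 841 and 106 against 1336 and 903 (-1.86, SE 0.63), with a probe set that can also detect similar transcripts, PDF1.2 being one candidate for that overlap. Both sfr3 arrays were below both wild-type arrays, but the sfr3 replicates were far from each other for each gene. Without sfr3 replicate 1 the values were -3.97 and -3.34, and without replicate 2 they were -0.80 and -0.38. A fit with 1 sfr3 array cannot measure the spread in sfr3, so only the sizes are given. In the cold PDF1.2 was at 20.4 and 51.8 in sfr3 and 67.1 and 54.2 in wild type. The 20.4, on sfr3 cold replicate 1, was under that array's background level of 35.4. PDF1.2 and PDF1.2b were the 2 tested of 23 genes on the list of jasmonate, ethylene and defensin genes.

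The cold-regulated (COR) genes, which protect cells during freezing or act early in cold responses, gave no call before cold. Of 17 genes on the list 7 were tested, with a median difference of 0.17 and a range of -0.06 to 0.60. COR15A, which encodes a protein that stabilises chloroplast membranes, was at 801 and 766 in sfr3 and 564 and 1028 in wild type, a difference of 0.04 with a 95% interval of -0.47 to 0.55. COR15B and the dehydrin gene COR47 differed by 0.07 and -0.06. For all 3 both sfr3 signals lay between the wild-type ones. The sfr3 arrays were above both wild-type arrays for 3 of the 7, next to 14.3% of all probe sets. The dehydrin gene LTI30 had 839 and 769 against 678 and 749 (0.17), COR27, which acts on the clock, 42.9 and 40.03 against 34.6 and 25.5 (0.45), and AT4G33980 had 35.5 and 26.8 against 20.4 and 18.9 (0.60, 95% interval -0.20 to 1.39). The zinc finger repressor gene STZ, the 1 tested of 8 cold regulators, had -0.16, and GI, the 1 tested of 29 clock genes, had 290 and 318 against 254 and 360.2 (0.01).

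Few genes of the pathways that use malonyl-CoA could be read. Of 32 genes of wax and very-long-chain fatty acid elongation 1 was tested, AT5G61590 (DEWAX), a transcriptional repressor of wax synthesis. Its signal was 1585 and 2031 in sfr3 and 1492 and 1194 in wild type, a difference of 0.43 (95% interval 0.02 to 0.84, limma adjusted p = 0.999). The groups did not overlap, with sfr3 replicate 1 close to wild-type replicate 1. Of 17 cutin genes 1 was tested, AT5G33370, at 19.6 and 34.8 against 32.6 and 44.1 (-0.50). Of 26 flavonoid and anthocyanin genes 3 were tested. UGT78D1, a flavonol glycosyltransferase gene, had 21.9 and 28.3 against 44.9 and 35.4 (-0.63), UGT78D2 -0.10 and the reductase gene DFR 0.18.

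In plastid fatty acid synthesis 4 of 21 genes were tested, and their differences ran from -0.18 to 0.09. FATB, the thioesterase that releases saturated fatty acids, was at 496 and 496 against 506 and 534 (-0.07, 95% interval -0.41 to 0.28). AT1G24360 and AT2G22230 had 0.09 and -0.18. Of the acetyl-CoA carboxylase genes only accD was read, at 222 and 679.7 in sfr3 and 927 and 774 in wild type (-1.12, SE 0.36, limma adjusted p = 0.999). It is a plastid genome transcript and shared the pattern of those transcripts, being lowest on sfr3 replicate 1: the difference was -0.32 without that array and -1.92 without replicate 2.

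The 26 lists held 423 genes in all. The annotation used left 8730 of the 22746 probe sets without a gene. It paired 63 of the list genes with a probe set, and 51 were tested. None of the 51 was called (0.00733% of all probe sets were). At an unadjusted p below 0.05 there were 6 (11.8%), 2 higher and 4 lower, next to 3.13% of all probe sets. The 4 lower were accD, WRKY53, PDF1.2 and PDF1.2b, and the 2 higher were DEWAX and LHCB4.3, a light-harvesting antenna gene with 222 and 190.3 in sfr3 against 149 and 160.3 (0.41). The groups did not overlap for 8 higher (15.7%) and 6 lower (11.8%), shares near the 14.3% and 16.4% of all probe sets. The median difference of the 51 was 0.05, and 48 lay within 2-fold.

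Other groups gave differences of the same small size. The 8 tested nuclear photosynthesis genes had a median of 0.04, with PSAE-1 and PSAN, subunits of photosystem I, at 0.04 each and the Calvin cycle gene SBPASE at 0.20. The 6 auxin and shade genes ran from 0.05 to 0.47, with the auxin-conjugating enzyme gene GH3.3 at 463 and 354 against 385 and 219.6. The 4 genes induced by sugar starvation ran from -0.03 to 0.29, with MCCA, of leucine breakdown, at 1176 and 1336 against 992 and 1055. The 5 genes of starch, sucrose and related sugars ran from -0.14 to 0.12. None of these lists had a member at an unadjusted p below 0.05 other than LHCB4.3. Single genes stood for glucosinolates (BCAT4, 0.18) and for metal and nutrient supply (CCS, 0.03).

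Gene families were also taken by symbol. Of 26 tested UDP-glycosyltransferase genes the sfr3 arrays were above wild type for 5 and below for 4 (14.3% and 16.4% of all probe sets), and the median was -0.04. UGT76E12 lay far outside the others, whose differences ran no higher than 0.48. UGT76E11, a close relative of UGT76E12, had 24.7 and 34.0 in sfr3 against 29.5 and 40.7 in wild type (-0.24). Of 12 cytochrome P450 genes 1 lay above and 3 below (14.3% and 16.4% of all probe sets), with values from -0.53 to 0.41. Of 6 WRKY genes 2 lay below (16.4% of all probe sets), WRKY53 (-0.80) and WRKY47 (-0.17), and the median was -0.12. The thylakoid and stromal ascorbate peroxidase genes TAPX and SAPX had 0.35 and 0.12, and the peroxidase gene AT5G64120 had -0.30.

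Markers of other tissues were read where a paired probe set was among those tested. The paired root markers EXPA7 and EXPA18 and the dividing-cell marker AUR2 were too dim to be tested. EXPA7 had 6.32 and 5.43 in sfr3, not above the background level, against 12.5 and 18.9 in wild type. EXPA18 had 4.26 and 18.0 against 22.8 and 5.86. Of 11 root markers 1 was tested, PYK10, a beta-glucosidase gene, at 202 and 199 in sfr3 and 196 and 132 in wild type (0.32, 95% interval -0.13 to 0.76). The mitotic kinase gene AUR1, the 1 tested of 9 dividing-cell markers, had 42.0 and 54.4 against 40.7 and 45.8. The guard cell marker FMA had 43.3 and 36.9 against 39.4 and 40.9, and AT1G22690 had a difference of 0.05. None of the 8 flower and 5 xylem markers was paired with a probe set in the annotation used. In bulk tissue, fewer cells of a type and less RNA per cell cannot be told apart.

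Plastid genome transcripts, all 69 of which were tested, were in their median low on sfr3 replicate 1 and not on sfr3 replicate 2. They encode subunits of the photosystems, the cytochrome b6f and NDH complexes, ATP synthase, and the plastid's own RNA polymerase and ribosomes. Their median difference was -0.38, against -0.01 for all probe sets. Both sfr3 arrays lay below both wild-type arrays for 17 (24.6%, next to 16.4% of all probe sets) and above them for 0 (next to 14.3%). At an unadjusted p below 0.05 there were 14, all lower, next to 2.01% of all probe sets, and none was called by limma (0.00733% of all; smallest adjusted p = 0.999).

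This group moved with 1 array. Relative to the wild-type mean the median was -0.84 on sfr3 replicate 1 and 0.06 on sfr3 replicate 2, while the wild-type arrays lay at 0.07 and -0.07. Replicate 1 was below both wild-type arrays for 64 of the 69 (92.8%), where 35.9% of all probe sets were, and 28 of the 69 were more than 2-fold down on it. Replicate 2 was below both wild-type arrays for 17 (24.6%), where 33.3% of all probe sets were. Without replicate 1 the median difference was 0.06, and without replicate 2 it was -0.84. Of the 37 probe sets that limma called without replicate 2, 23 were plastid transcripts, psaC (adjusted p = 5.95e-04), petL (0.0163) and accD among them, and of the 6 called without replicate 1 none was. Replicate 1 is the array with the highest 3′/5′ ratios and 25S rRNA signal given above, and the part of these in the result was not tested. Over both sfr3 arrays the 8 tested of 41 nuclear photosynthesis genes had a median difference of 0.04, next to -0.38 for the plastid transcripts. Their median on replicate 1 alone was not computed.

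**Figure D4:**
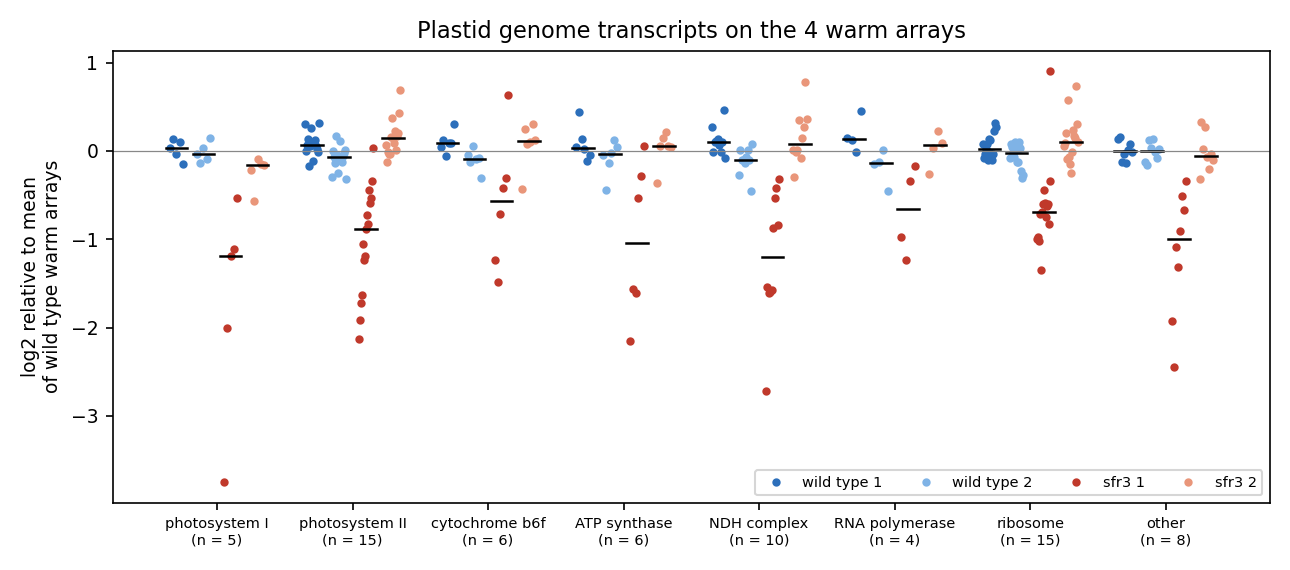
Log2 signal of the 69 plastid genome transcripts relative to the mean of the wild-type warm arrays, by complex, with 1 point per transcript and array and a black line at each median. The sfr3 replicate 1 points lie mostly below 0 (median -0.84 over all 69), and those of sfr3 replicate 2 lie around 0 (median 0.06).

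Photosystem I was the complex whose transcripts were all lower on both sfr3 arrays, 5 of 5, next to 24.6% of the plastid transcripts and 16.4% of all probe sets. It was singled out after the values were seen. psaA, which encodes a reaction centre protein, was at 160.3 and 1882 in sfr3 and 2239 and 2129.6 in wild type (-1.98). psaC, which encodes the iron-sulfur subunit, was at 213 and 582 against 947 and 781 (-1.28, SE 0.34; -0.56 without replicate 1 of sfr3 and -2.004 without replicate 2). Replicate 2 was below wild type by much less than replicate 1 in both. psaJ had 1561 and 3339 against 3477 and 3643 (-0.64), psaI 921 and 1801 against 2131 and 1863 (-0.63), and psaB 4230.0 and 5501 against 5534 and 6803 (-0.35). On replicate 2 alone the median of the 5 relative to wild type was -0.16.

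In the other complexes the transcripts low on both arrays, next to 16.4% of all probe sets, were 1 of 15 in photosystem II (psbD, -1.02), 1 of 6 in cytochrome b6f (petL, -0.83), 1 of 6 in ATP synthase (atpH, -1.26), 2 of 10 in the NDH complex, 1 of 4 in the RNA polymerase and 3 of 15 in the ribosome. petL, a small subunit, had 350.3 and 609 against 850.4 and 801, and atpH, which encodes the membrane ring subunit, had 426 and 1480.4 against 1968 and 1844. Subunits of 1 complex differed. atpE was at 7404 and 7335 against 6883 and 7368 (0.05), and psbM at 4961 and 8507 against 6257 and 6342 (0.04). The transcript rps14 had 264 and 151 against 169.6 and 116 (0.50), with its highest signal on sfr3 replicate 1. Of 5 tested mitochondrial transcripts 3 were lower on both sfr3 arrays (16.4% of all probe sets), among them nad4 at 127 and 209 against 225 and 271 (-0.60).

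Whether the warm differences recurred was read on the 4 cold arrays, which were not among the arrays of the warm fit. They entered it only through the pseudocount, taken over the whole table. Of the 427 probe sets with an unadjusted p below 0.05 in the warm, 205 (48.0%) had the same sign in the cold, against 48.2% of all 13648. Without sfr3 cold replicate 1 the shares were 48.5% and 50.2%, and without sfr3 cold replicate 2 they were 44.7% and 47.4%. Of the 30 named genes the cold sign was the same for 9 of the 15 higher and 8 of the 15 lower. Both cold sfr3 arrays lay on the same side of both cold wild-type arrays as in the warm for 5 of the 30, and on the other side for 7. On sfr3 cold replicate 1, some of these signals were under that array's background level of 35.4. They were PDF1.2 (20.4) among the 5, and OASA2 (7.57) and AT5G57370 (25.2) among the 7. Among all probe sets, the cold sfr3 arrays lay above both cold wild-type arrays for 19.9% and below them for 21.9%. limma called 4 probe sets (0.0293%) between the genotypes in the cold and 6 (0.044%) for the interaction, with none of the 30 among either. HAT2, of the auxin and shade list, was among the 6 (0.13 warm, -2.52 cold, limma interaction adjusted p = 0.0450). Its cold sfr3 signals were not above the background level. No interaction of the 30 named genes passed (limma, smallest adjusted p = 0.737).

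LSM3B illustrates a gene that did not recur, with 91.9 and 90.8 in cold sfr3 and 107 and 125 in cold wild type. AT2G27080 had 38.2 and 38.2 in cold sfr3 against 14.3 and 30.6, the opposite order to the warm. The first 38.2, on sfr3 cold replicate 1, was only just above that array's background level of 35.4. UGT76E12 was not above the background level in either genotype in the cold. EXPA15 had 85.2 and 77.9 against 82.0 and 94.4, with overlapping groups. BZIP17 kept its order, with 202 and 119 in cold sfr3 and 104 and 78.4 in cold wild type.

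All 4 sfr3 arrays lay on 1 side of all 4 wild-type arrays for 155 probe sets (1.14%), 65 above (0.476%) and 90 below (0.659%). Of the 427, 18 (4.22%) did so, 4 above and 14 below. The 427 were picked by a small p in the warm, which favours separated groups without requiring them. This share is therefore a description. Apart from 261639_at they included GTR2, a glucosinolate transporter gene, at 100.5 and 107 in warm sfr3 and 138 and 161 in warm wild type, and 92.9 and 115 against 131 and 130.4 in the cold. CLE44, which encodes a peptide signal of vascular development, had 22.9 and 23.1 against 45.3 and 40.1 in the warm (-0.83). In the cold it had 7.71 and 32.6 against 39.2 and 34.3. The 7.71, on sfr3 cold replicate 1, was under that array's background level of 35.4, and the 32.6 was close to wild type. Also under that level on the same array were 246083_at (9.05), 248875_at (5.34) and 250686_at (21.4), all among the 14 below. AT2G26920 had 127 and 126 against 88.7 and 95.02 in the warm and 127 and 97.6 against 92.0 and 68.9 in the cold (0.45 and 0.47). AT1G80280, AT5G52530 and the mitochondrial nad4 were lower throughout, and the other 11 probe sets were not paired with a gene. These were chosen after their values were seen.

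**Figure D5:**
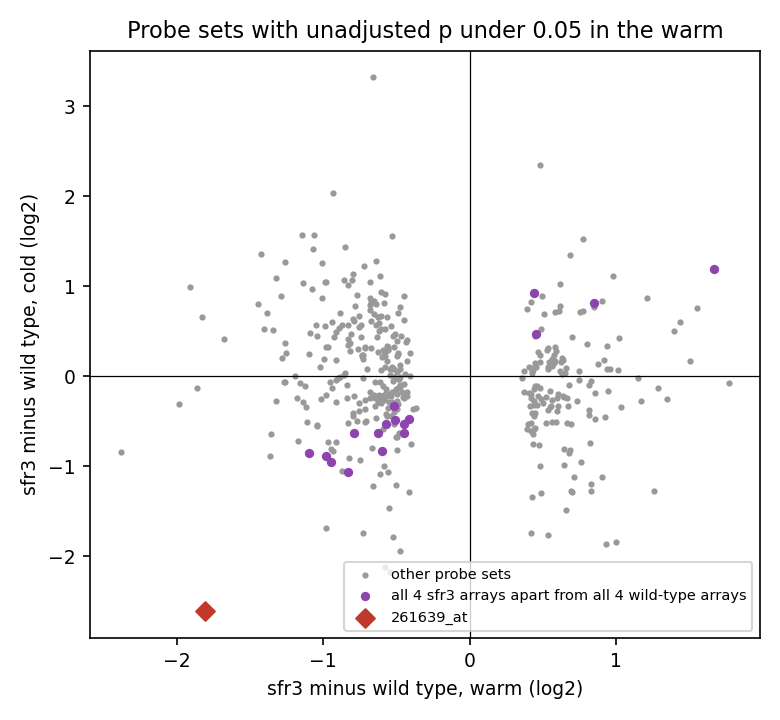
Difference of sfr3 minus wild type (log2) on the cold arrays against that on the warm arrays for the 427 probe sets with an unadjusted p below 0.05 in the warm. Purple points and the red diamond are the 18 whose 4 sfr3 arrays all lie on 1 side of the 4 wild-type arrays; the grey points lie above and below 0 in the cold about equally (48.0% of all 427 keep their sign).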

How the data were processed

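The deposited table holds intensities on a linear scale, made by the authors with MAS5 and GCOS (no versions stated), per the submitters' processing notes; background handling: not given in the sources used here. From the table of 22810 probe sets, 64 control probe sets were left out. The 10th percentile over the table, 2.17, served as pseudocount before taking log2. The brightest 60% by mean over the 4 warm arrays (at least 22.3) were fitted on these arrays alone with limma 3.58.1 (R 4.3.3), moderated by empirical Bayes with a trend on intensity (2 residual and 10.2 prior degrees of freedom, median residual SD 0.192). P-values were two-sided, adjusted by Benjamini-Hochberg over the 13648 tested, and a call was an adjusted p below 0.05. The cold arrays were fitted alone, and the interaction in 1 model of 8 arrays. The computation was tested on simulated data.

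Among those tested, 7312 had 1 gene, 281 several and 6055 none in the platform's annotation table; symbols came from a RefSeq table of TAIR10.1, used for names only. Named genes were the called ones of 1 gene with non-overlapping groups, filled to 15 in each direction by smallest p, plus up to 2 of each list; the brightest probe set stood for a gene that had several. Families were found by symbol, plastid transcripts by chromosome. The comparison, the members and the lists were chosen with earlier results of these data known. Families without a usable symbol were not analysed here, and no sequence is shown. Alternatives were other pseudocounts, filters, scalings and variance models, a replicate block, and leaving out each array.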

Additional observations from a re-analysis of the deposited data

How the results depend on the processing

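With 2 arrays per group the count of calls was small under most settings. The count of 1 (0 higher, 1 lower) stayed at 1 with pseudocounts of 1 or 16, the brightest 40% of probe sets, quantile normalization, centring on the median, robust moderation or a 2-fold minimum. It was 0 without a filter, 0 without the intensity trend and 0 with all 8 arrays in 1 model; more probe sets were tested in the first, and the cause was not tested for the other two. Leaving out 1 array gave 1 to 37 calls, 0 to 3 higher and 1 to 37 lower: 6 and 37 without sfr3 replicate 1 and 2, and 4 and 1 without wild-type replicate 1 and 2. The 37 were all lower, and an array left alone in its group is assumed to vary like the other group. The replicate numbers were not taken as pairs, since the deviations of same-numbered arrays correlated at -0.02 and no label states a pairing. A replicate block gave 13 calls, 2 higher and 11 lower, 4 of them plastid transcripts, with adjusted p = 0.00247 for AT2G27080, 0.0274 for LSM3B and 0.0422 for UGT76E12. Probe sets at an unadjusted p below 0.05 numbered 102 to 979, against 427.

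Members of the fixed lists called numbered 3 with the block, and leaving out 1 array gave 0 to 2 against 0. These were PDF1.2 and PDF1.2b without sfr3 replicate 1 and accD without replicate 2. The mean of the median absolute differences was 0.182 across genotypes and 0.189 between replicates with a pseudocount of 16, 0.285 and 0.291 without a filter, and 0.182 and 0.193 for the brightest 40%, against 0.211 and 0.221. The order of the 2 kinds of pair was thus kept in these settings.

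Of 795 recomputed warm values of 58 named genes and probe sets, 761 kept direction and side of the threshold, 12 gained a call, 3 lost one (all of 261639_at) and 19 changed sign. GI turned to -0.0092 under quantile normalization, and FMA to 0.048 under quantile normalization and 0.055 under centring. Ranges over the arrays left out in the warm were -0.43 to 0.076 for AT2G22230, -0.33 to 0.70 for DFR, -0.25 to 0.26 for GI, -0.41 to 0.76 for BCAT4, -0.25 to 0.033 for SWEET11, -0.036 to 0.22 for PWD, -0.14 to 0.20 for CCS, -0.037 to 0.32 for AUR1, -0.057 to 0.15 for AT1G22690, -0.11 to 0.11 for FMA and -0.39 to 0.054 for RCA; the plastid median ran from -0.84 to 0.061. Of the recomputed cold values 68 kept both, 27 gained a call with 1 cold sfr3 array left out, and 21 changed sign. In the cold, leaving out either sfr3 array gave -0.40 to 0.26 for UGT76E12, -0.21 to 0.35 for AT1G10585, -0.084 to 0.27 for AT3G52730, -0.066 to 0.94 for AT4G10910, -0.016 to 0.23 for AT1G65270, -0.74 to 0.53 for SWEET4, -0.82 to 0.014 for AT3G47590, -0.64 to 0.51 for AT4G31200, -1.52 to 0.64 for WRKY53, -0.24 to 0.64 for psaC, -0.10 to 0.31 for AT4G29780, -0.96 to 0.48 for petL, -0.75 to 0.028 for AT3G56290, -0.17 to 0.82 for PUB23, -0.00082 to 0.12 for AT5G33370, -0.30 to 0.20 for AT2G22230, -0.59 to 0.78 for LHCB4.3, -0.77 to 0.073 for SBPASE, -0.27 to 0.016 for PDF1.2b, -2.01 to 0.28 for IVD and -0.33 to 0.74 for FMA.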
